A study of Mus musculus with 16 samples.

Results

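The genes described here are 7 subunits of the GABA-A receptor, chosen by symbol: the alpha subunits Gabra2, Gabra3, Gabra4 and Gabra5, the beta subunits Gabrb1 and Gabrb2, and the delta subunit Gabrd. They are 7 of 24062 genes in the count table and 7 of 23991 in the FPKM table, which together hold 19 GABA-A receptor subunit genes. RNA was sequenced from whole brains, cerebellum included, of 16 female C57BL/6J mice taken on PND 45, with 4 mice in each of 4 groups. WW mice drank only water. NW mice drank nicotine at 200 µg/ml for 22 h per day. Water-Ethanol mice had water and, on the last 4 days, a bottle of 20% v/v ethanol for 2 h a day (4 h on the last) under drinking-in-the-dark, a schedule that offers ethanol for a short part of the dark phase. NE mice received nicotine and ethanol in the same way. The last ethanol or water session lasted 4 h and ended at dissection, so nicotine had been absent for those 4 h in NW and NE. Nicotine access began before the last 4 days and ran through them. All mice were of 1 inbred strain without any genetic change, and each library was 1 mouse. Intake was by drinking, with no choice of water while nicotine or ethanol was offered. A mouse had 27100352 to 32880979 counted reads, with a median of 29448284.

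GABA-A receptors are chloride channels opened by the transmitter GABA, and they carry most fast inhibition in the brain. Each channel is a ring of subunits, usually alpha and beta subunits with a gamma subunit at synapses, and the subunits present set where the receptor sits and which drugs act on it. The delta subunit takes the place of gamma in receptors outside synapses, mostly with Gabra4 in forebrain and thalamus and with Gabra6 in cerebellar granule cells, and these carry a lasting, tonic inhibition. Gabra2 is concentrated at the start of axons, Gabra3 in reticular thalamus and monoamine neurons, and Gabra5 in hippocampus, where it too serves tonic currents. Gabrb2 is a beta subunit found in most regions of the adult brain.

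Most subunit genes lie in clusters. On GRCm38, as the count table gives them, Gabra2 (chr5:70961057-71095849, minus strand), Gabra4 (chr5:71569734-71658308, minus strand) and Gabrb1 (chr5:71700016-72137244, plus strand) share a cluster of 4 subunit genes with Gabrg1 that spans 1386.2 kb. Gabra5 (chr7:57407669-57510009, minus strand) lies in the cluster that holds Gabrg3. Gabrb2 (chr11:42419757-42632591, plus strand) lies in the cluster that holds Gabra6. Gabra3 (chrX:72432676-72656246, minus strand) lies between Gabre and Gabrq and holds the microRNA genes Mir105 and Mir767 in its span. Gabrd (chr4:155384979-155398069, minus strand) stands alone and is the shortest, 13.1 kb against 88.6 to 437.2 kb for the other 6. Exons of Gabra5 overlap those of Gm9962, so reads in the overlap may belong to either gene. No other exon of these 7 genes overlaps another gene in the count table.

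Promoter windows of 300 bases, from 250 before to 50 after the annotated start, were taken from RefSeq (GRCm38.p6), where 6 of the 7 genes had 10 windows among 32851. For a gene with several windows, the 1 nearest to the gene's start in the count table was used. Its annotated start still lay 561 bases from that gene start for Gabra3 and 683 bases for Gabrb2, and at most 84 bases for the others. The 3 alpha subunits whose levels moved together most closely over the mice, Gabra3, Gabra4 and Gabra5, are shown with Gabrb1, which stood apart from the other genes in the comparison of NE with Water-Ethanol. Capitals mark matches to any of 7 motifs searched on both strands. The cyclic AMP response element was searched as TGACGTCA, the AP-1 site of Fos and Jun proteins as TGANTCA, and the site of the EGR factors as GCGNGGGCG. The E-box, bound by helix-loop-helix proteins, was CACGTG in this search. The GC box, which Sp1 binds, was taken as GGGCGG and can overlap an EGR match. The TATA box of core promoters was entered as TATAAA, and the CCAAT box by the letters of its name. The window of Gabra3 is chrX:72656758-72657057 (minus strand), that of Gabra4 chr5:71658259-71658558 (minus strand), that of Gabra5 chr7:57510010-57510309 (minus strand) and that of Gabrb1 chr5:71699682-71699981 (plus strand).
Gabra3: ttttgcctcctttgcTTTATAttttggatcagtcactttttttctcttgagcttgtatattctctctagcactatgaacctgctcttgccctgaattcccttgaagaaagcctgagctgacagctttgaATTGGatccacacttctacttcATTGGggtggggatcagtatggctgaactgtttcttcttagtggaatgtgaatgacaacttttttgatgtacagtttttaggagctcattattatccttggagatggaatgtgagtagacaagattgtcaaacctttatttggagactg
Gabra4: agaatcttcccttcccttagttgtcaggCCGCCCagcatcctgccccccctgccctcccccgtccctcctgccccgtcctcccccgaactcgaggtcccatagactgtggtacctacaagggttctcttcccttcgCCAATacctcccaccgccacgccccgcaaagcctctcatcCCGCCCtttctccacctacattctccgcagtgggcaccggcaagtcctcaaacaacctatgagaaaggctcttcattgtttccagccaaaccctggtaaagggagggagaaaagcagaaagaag
Gabra5: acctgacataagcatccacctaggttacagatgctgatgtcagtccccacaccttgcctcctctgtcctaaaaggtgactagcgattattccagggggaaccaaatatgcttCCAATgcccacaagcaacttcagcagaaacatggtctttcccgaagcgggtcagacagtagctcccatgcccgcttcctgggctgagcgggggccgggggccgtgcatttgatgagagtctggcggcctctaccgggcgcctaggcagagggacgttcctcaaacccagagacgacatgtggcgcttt
Gabrb1: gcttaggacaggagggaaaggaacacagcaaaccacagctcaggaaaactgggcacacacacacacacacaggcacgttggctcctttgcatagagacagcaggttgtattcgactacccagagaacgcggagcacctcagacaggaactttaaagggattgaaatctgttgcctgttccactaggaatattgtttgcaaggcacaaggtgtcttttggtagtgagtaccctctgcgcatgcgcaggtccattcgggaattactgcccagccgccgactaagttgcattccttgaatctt

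CCAAT was the motif that the windows of Gabra3, Gabra4 and Gabra5 shared, and 37.4% of all windows held it. Their base composition was unlike: 39.3% GC and 0 CpG sites in Gabra3, 58.7% and 12 CpG sites in Gabra4, and 56.7% and 13 CpG sites in Gabra5, against a median of 52.7% GC over all windows. The window of Gabra4 also held GC boxes, which 35.7% of windows held, and that of Gabra3 a TATA box far from the start (13.6% of windows). None of the 7 motifs matched in the printed window of Gabrb1, while its other window (chr5:71657671-71657970, 66.0% GC) held 2 EGR matches. In Gabrb2, TATAAA began 30 bases before the annotated start (position -30), and the EGR and GC box matches in its window overlapped each other. No cyclic AMP response element, AP-1 or E-box match occurred in the nearest window of any of the 6 genes. These matches describe the letters of the windows only.

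By FPKM, a level per transcript length, Gabrb2 was the highest of the 7 genes at 71.0 ± 4.71 (SD, n = 16 mice). Next came Gabra3 at 40.7 ± 1.94, Gabrd at 37.5 ± 3.01, Gabra4 at 35.5 ± 2.79, Gabra5 at 25.9 ± 1.76, Gabra2 at 23.2 ± 1.33 and Gabrb1 at 19.4 ± 1.21. Gabrb2 was 1.74 times Gabra3, and their ranges over the mice did not overlap. Gabra3, Gabrd and Gabra4 were neighbours that their spread did not separate, since Gabra3 exceeded Gabrd in 13 of 16 mice and Gabrd exceeded Gabra4 in 12 of 16. Gabra4 lay above Gabra5 in all 16 mice, with ranges apart. Gabra5 also exceeded Gabra2 within each of the 16 mice, although their ranges over the mice overlapped. The counts, scaled per kilobase of exon, gave the same order.

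The 7 genes together made up 43.2% of the summed FPKM of all 19 subunits, between 41.3% and 46.5% in single mice. Gabrg1 (7.69 to 10.05 over the mice) and Gabrg3 (4.01 ± 0.430) lay below all 7. Gabrp, Gabrr1 and Gabrr3 had too few reads to be tested, with mean FPKM from 0.00817 to 0.0967. Each of the 7 genes had between 867 and 17477 counted reads in every mouse, so all 7 passed the filter on low counts, and the coefficient of variation within a group lay between 1.1% and 10.9% (median 5.4% over 28 gene and group pairs).

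**Figure D1:**
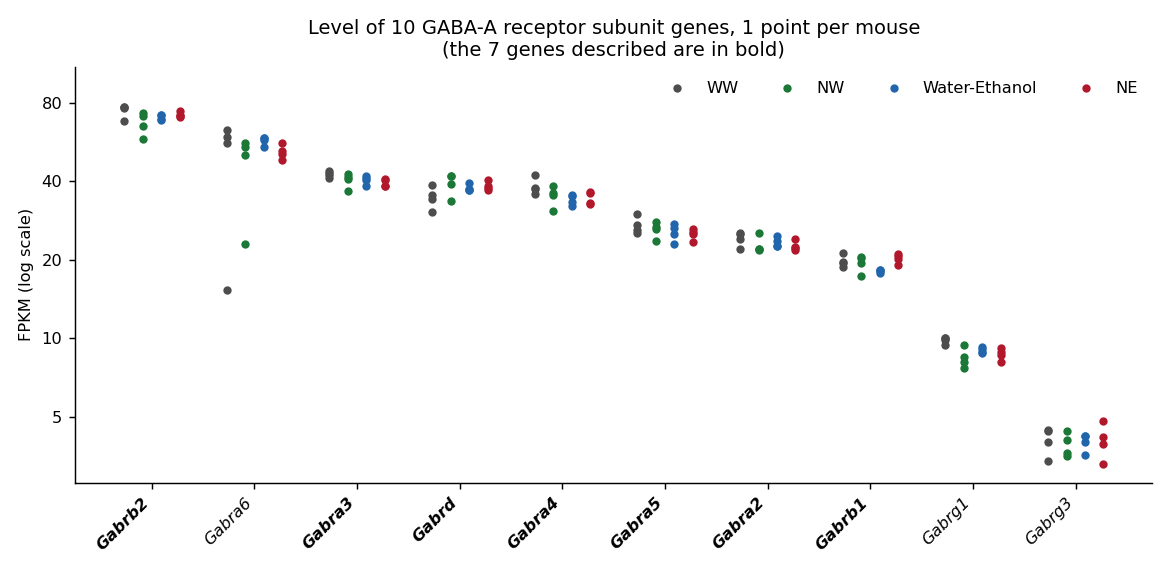
FPKM on a log axis of the 7 genes and of Gabra6, Gabrg1 and Gabrg3, 1 point per mouse and a colour per group. The 7 genes described, in bold, lie between 17.4 and 77.2 FPKM, while Gabra6 drops to 15.3 in 1 WW mouse.

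The libraries were not alike in the part of the brain they held. The summed level of 8 cerebellar granule cell markers (Fat2, Cbln1, Cbln3, Neurod1, Zic1, Zic2, Barhl1, En2) was 302.5 CPM (TMM-scaled counts per 1e6 reads) in WW replicate 4 and 409.1 in NW replicate 3, against 789.7 to 1016 in the other 14 mice. Gabra6, the subunit of cerebellar granule cells, was at 36.2 and 56.0 CPM in those 2 mice and at 115.9 to 152.0 in the others. All 8 markers were detected in all groups, so the label of whole brain with cerebellum held, with less cerebellar RNA in 2 mice. NW replicate 3 also had the highest summed level of the 3 pituitary markers Prl, Gh and Pomc, 16.9 CPM against 0.781 to 3.09 in the rest. In whole tissue, fewer cells of a type and less RNA per cell cannot be told apart. Transcripts poor in GC also differed between groups: the median log2 level of genes with under 41.4% GC relative to genes with over 58.0% was 0.043 to 0.158 in WW, -0.234 to -0.006 in NW, -0.024 to 0.057 in Water-Ethanol and -0.082 to 0.007 in NE. The transcripts of 6 of the 7 genes had GC contents from 38.4% (Gabra2) to 47.1% (Gabra5), below the median of 49.8% of expressed genes, and that of Gabrd had 54.7%.

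Ethanol against water was compared first, as it held the 7 genes' smallest adjusted p-value. By edgeR's quasi-likelihood test 0 of the 7 genes were called (adjusted p under 0.05), against 0.457% of 15323 genes. Gabra4 and Gabrb1 were lower in Water-Ethanol without overlap of the groups, which 5.68% of all genes tested also were. The unadjusted p-value was under 0.05 for 3 of the 7 genes, 2 of them lower and 1, Gabrd, higher, against 19.3% of all genes. Altogether 6 of the 7 log2 fold changes were negative (49.4% of all genes), with a median of -0.10 where that of all genes was 0.0015.

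Gabra4, the alpha partner of the delta subunit in forebrain, was at 146.3, 149.4, 140.5 and 165.7 CPM in the WW mice and at 129.7, 137.9, 125.5 and 136.9 in the Water-Ethanol mice. Every WW value exceeded every Water-Ethanol value, and WW replicate 4, the mouse with the fewest cerebellar markers, was the highest. The log2 fold change was -0.18 (SE 0.0519, 95% interval -0.29 to -0.07), 11.8% lower, with adjusted p = 0.103 in edgeR's test. DESeq2 gave the same fold change with an adjusted p of 0.0356 and so called it. In that fit DESeq2 called 605 of 19865 genes, where edgeR called 70 of 15323. Under the alternatives, run with edgeR, DESeq2 or limma, the adjusted p ranged from 0.0356 to 0.255. Without WW replicate 4 the log2 fold change was -0.13 (adjusted p = 0.0842 in edgeR's test).

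Gabrb1, a beta subunit, was at 33.4, 32.7, 36.8 and 33.7 CPM in WW and at 31.1, 30.6, 30.5 and 31.2 in Water-Ethanol. Here too the groups did not overlap, and the Water-Ethanol mice were the most alike of any gene and group, with a coefficient of variation of 1.1%. The log2 fold change was -0.14 (SE 0.0474, 95% interval -0.25 to -0.04), with adjusted p = 0.140 in edgeR's test, and from 0.109 to 0.334 over the alternatives of edgeR, DESeq2 and limma. Correction for GC content gave -0.10. The score of 7 cortical and hippocampal excitatory neuron markers, a mean of centred log2 CPM, ran from -0.13 to -0.06 in Water-Ethanol and from -0.02 to 0.17 in WW, so it too was lower without overlap, and its part in the result was not tested.

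Gabrd, the delta subunit, was at 60.3, 68.0, 62.2 and 53.1 CPM in WW and at 70.3, 66.1, 66.7 and 66.0 in Water-Ethanol. It was the 1 gene of the 7 with a higher mean in Water-Ethanol, and the groups overlapped through WW replicate 2. Its log2 fold change was 0.15 (SE 0.0622, 95% interval 0.01 to 0.28), with adjusted p = 0.226 in edgeR's test. WW replicate 4, short of cerebellar markers, had the lowest Gabrd of all 16 mice, and without it the log2 fold change was 0.09 (adjusted p = 0.313).

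Gabrb2, the most abundant of the 7, was at 561.5, 566.5, 559.7 and 495.4 CPM in WW and at 518.3, 500.0, 501.3 and 519.7 in Water-Ethanol. The same WW mouse was the exception: 3 WW mice lay above all Water-Ethanol mice and replicate 4 below them. With all mice the log2 fold change was -0.10 (SE 0.0445, adjusted p = 0.264 in edgeR's test). Without WW replicate 4 it was -0.14 (adjusted p = 0.0336), and with the cerebellar granule cell score as a covariate -0.14 (adjusted p = 0.0316), which were calls in the same test. In those fits 797 and 714 of all genes were called, against 70 with all mice and no covariate.

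The other 3 alpha subunits also had negative values. Gabra3 lay between 145.8 and 153.3 CPM in WW and between 133.8 and 146.7 in Water-Ethanol, a log2 fold change of -0.08 (SE 0.0374, adjusted p = 0.269 in edgeR's test). Gabra5, with 63.9 to 74.2 against 57.0 to 67.8 CPM, had -0.10 (SE 0.0595, adjusted p = 0.396), and Gabra2, with 50.7 to 57.5 against 50.6 to 54.9 CPM, had -0.07 (SE 0.0487, adjusted p = 0.448). The groups overlapped in all 3. Gabra5 was at -0.05 without WW replicate 4 and at -0.05 without Water-Ethanol replicate 3, and Gabra2 at -0.11 without WW replicate 3. Over the 7 genes the 95% intervals allowed differences from 18.4% lower, for Gabra4, to 21.5% higher, for Gabrd.

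**Figure D2:**
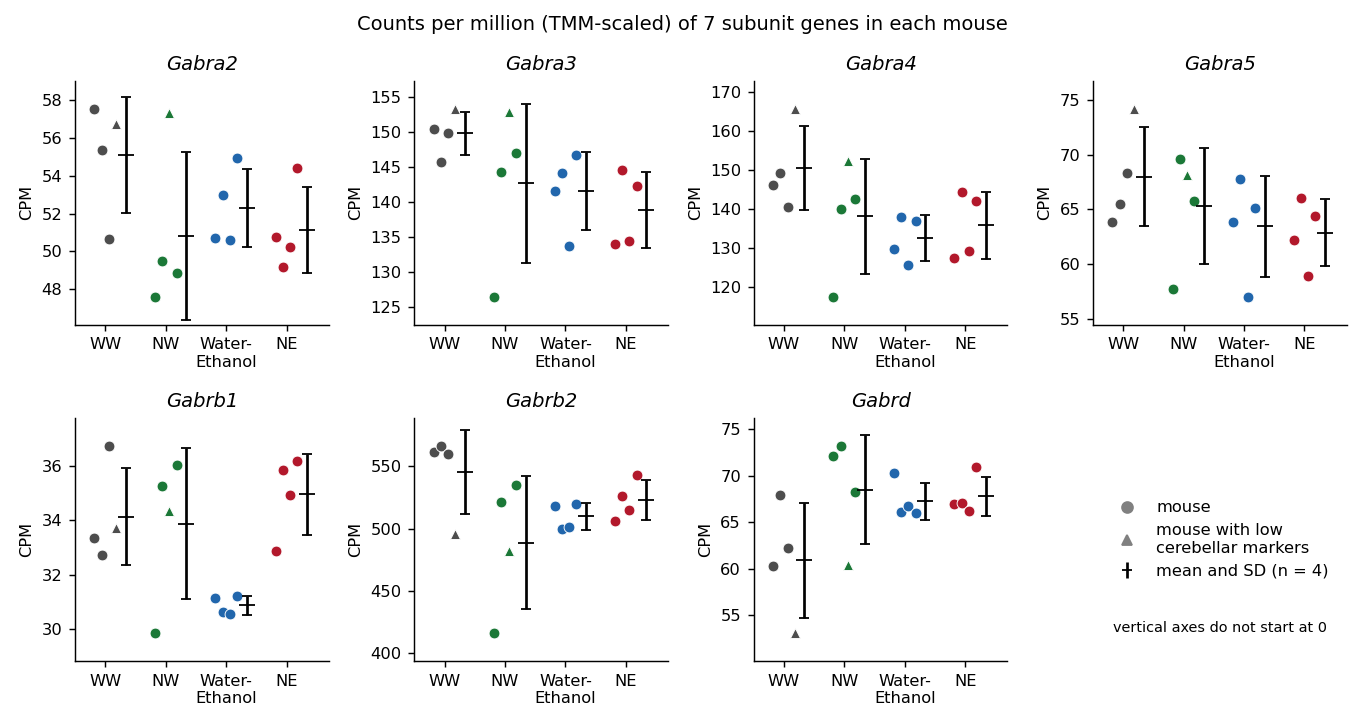
CPM scaled with TMM factors of the 7 genes in each of the 16 mice by group, with the mean and SD of 4 mice beside the points. Triangles mark WW replicate 4 and NW replicate 3, the mice with low cerebellar markers, and the vertical axes do not start at 0. Gabra4 and Gabrb1 lie lower in every Water-Ethanol mouse than in any WW mouse, and Gabrd is lowest in WW replicate 4.

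Nicotine and ethanol together were compared with water using the same WW mice. Again 0 of the 7 genes were called (0.313% of 15313 genes were), and 3 had an unadjusted p under 0.05, 2 lower and 1 higher, against 17.5% of all genes. Gabra3, the alpha subunit of reticular thalamus, was at 150.4, 145.8, 149.9 and 153.3 CPM in WW and at 134.0, 144.6, 134.5 and 142.3 in NE. All NE mice lay below all WW mice, as in 5.51% of all genes, with a log2 fold change of -0.11 (SE 0.0361, 95% interval -0.19 to -0.03, adjusted p = 0.165 in edgeR's test). Over the alternatives of edgeR, DESeq2 and limma its adjusted p lay between 0.106 and 0.505, and with the GC correction the log2 fold change was -0.06.

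Gabra4 was at 127.5, 144.3, 129.2 and 142.2 CPM in NE, where 2 mice lay below all WW mice and 2 within their range. Its log2 fold change was -0.15 (SE 0.0558, adjusted p = 0.208 in edgeR's test), and -0.10 without WW replicate 4. Gabrd was at 67.0, 67.1, 66.2 and 70.9 CPM in NE, a narrow range of which 1 mouse exceeded all WW mice. Its log2 fold change was 0.16 (SE 0.0637, adjusted p = 0.238 in edgeR's test), and 0.09 without WW replicate 4. Gabra5 (-0.11, adjusted p = 0.301), Gabra2 (-0.10, adjusted p = 0.305) and Gabrb2 (-0.06, adjusted p = 0.548) had negative values with overlapping groups in the same test. Without WW replicate 4 Gabra5 was at -0.07 and Gabrb2 at -0.10. For Gabra2, whose transcript is the poorest in GC of the 7, the correction for GC content gave -0.02. Gabrb1, unlike in Water-Ethanol, was at 32.9, 35.9, 34.9 and 36.2 CPM in NE and had a log2 fold change of 0.04 (SE 0.0511, adjusted p = 0.767 in edgeR's test). The intervals in this comparison reached from 17.0% lower (Gabra4) to 22.7% higher (Gabrd).

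Between NE and Water-Ethanol the largest difference among the 7 genes was in Gabrb1, which did not pass the threshold. The 4 NE mice, 32.9 to 36.2 CPM, lay above the 4 Water-Ethanol mice, 30.5 to 31.2 CPM, a separation that 1.97% of all genes showed in that direction. The log2 fold change was 0.18 (SE 0.0444, 95% interval 0.08 to 0.27), 13.1% higher. Its unadjusted p-value of 0.00131 was rank 20 among 15319 genes, and the adjusted p was 0.834 in edgeR's test. In that comparison 0 of all genes were called by edgeR (0.0%), and 5.8% had an unadjusted p under 0.05. Leaving out any 1 mouse kept the log2 fold change between 0.16 and 0.20, and over the alternatives of edgeR, DESeq2 and limma the adjusted p lay between 0.336 and 0.999. In NE the excitatory neuron score ran from -0.04 to 0.09, above that of every Water-Ethanol mouse (-0.13 to -0.06), as did Gabrb1, and its part in the result was not tested. Absolute log2 fold changes of the other 6 genes were at most 0.04, and their groups overlapped.

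Nicotine alone was compared with water, again with the same WW mice. Of the 7 genes 0 were called, where edgeR called 0 of 15344 genes (0.0%) and DESeq2 121 genes but none of the 7. Only Gabrd had an unadjusted p under 0.05 (8.44% of all genes had), no gene separated the groups (5.96% of all genes did), and 6 of 7 log2 fold changes were negative (46.4% of all genes). Gabrd was at 72.2, 73.2, 60.4 and 68.3 CPM in NW, so 3 NW mice lay above all WW mice and replicate 3, short of cerebellar markers, did not. The log2 fold change was 0.17 (SE 0.0783, 95% interval 0.0001 to 0.34, adjusted p = 0.592 in edgeR's test). Without WW replicate 4 it was 0.11, and without both mice that were low in cerebellar markers, a fit added after seeing the data, it was again 0.17 (adjusted p = 0.394).

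Gabrb2 was at 416.1, 521.8, 482.1 and 535.1 CPM in NW. Replicate 1, at 416.1, was the lowest of all 16 mice, and was also the lowest for Gabra3 (126.5), Gabra4 (117.5), Gabra2 (47.6) and Gabrb1 (29.8). That mouse had the lowest ratio of GC-poor to GC-rich genes of the series, -0.234 on the log2 scale. The log2 fold change of Gabrb2 was -0.16 (SE 0.0746, adjusted p = 0.605 in edgeR's test), -0.09 without NW replicate 1 and -0.10 with the GC correction. Gabra4 had -0.12 (adjusted p = 0.688), which was -0.05 without NW replicate 1, -0.07 without WW replicate 4 and -0.04 with the GC correction. Gabra2 had -0.12 (adjusted p = 0.671) and Gabrb1 -0.01 (adjusted p = 0.976), and the GC correction turned both to positive values, 0.03 and 0.09. Gabra3 (-0.07) and Gabra5 (-0.06) had the remaining values, with adjusted p-values of 0.762 and 0.834 in the same test. Without NW replicate 1 they were -0.02 and -0.0034, and Gabra5 was -0.01 without WW replicate 4. Without NW replicate 3 the values of Gabra2 (-0.19), Gabra3 (-0.11) and Gabra5 (-0.09) were larger in size, as was that of Gabra5 without NW replicate 2 (-0.09). The intervals ran from 20.0% lower (Gabrb2) to 26.8% higher (Gabrd).

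**Figure D3:**
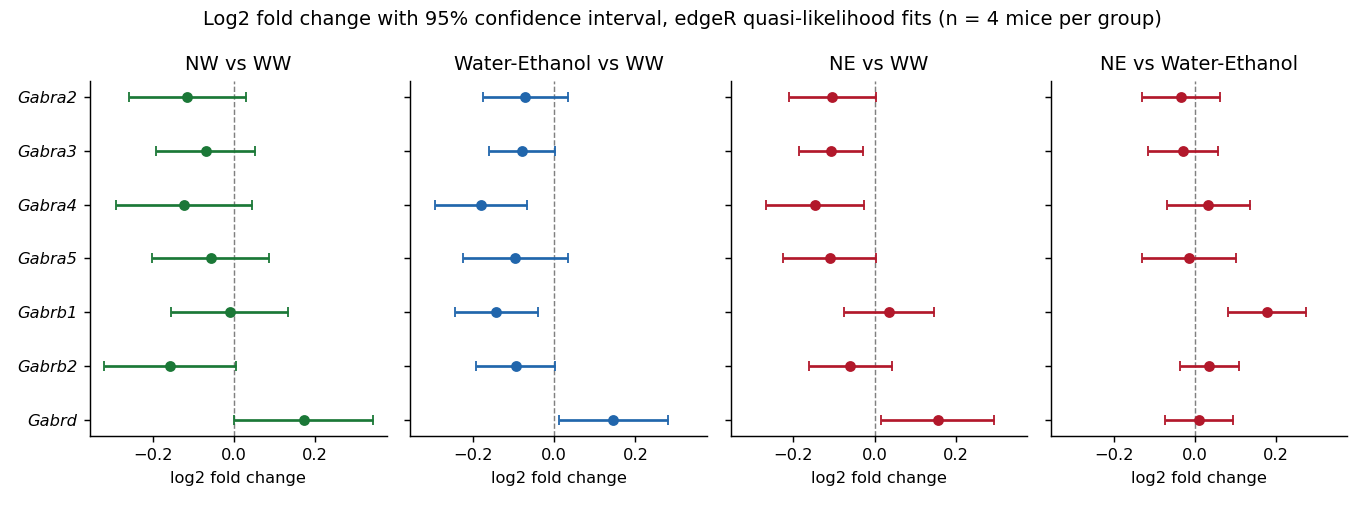
Log2 fold change of each gene (horizontal axis) with its 95% confidence interval in NW, Water-Ethanol and NE against WW and in NE against Water-Ethanol, from edgeR fits of 4 against 4 mice. The 6 genes other than Gabrd have negative values in the Water-Ethanol comparison, and Gabrb1 is the 1 gene whose interval excludes 0 between NE and Water-Ethanol, at 0.18. The first 3 comparisons share their WW mice.

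In the fit of all 16 mice, the effect of ethanol averaged over nicotine called 4.5% of 15592 genes and 0 of the 7, and 22.9% of all genes had an unadjusted p under 0.05. Gabra4 had the largest absolute value, -0.10 (SE 0.0484, adjusted p = 0.207 in edgeR's test), and -0.06 without the 2 mice low in cerebellar markers. Gabrb2 had a value of -0.0005, with an interval of -0.09 to 0.09. For nicotine averaged over ethanol, 0 of the 7 genes and 0.0% of all genes were called, with 10.3% of all genes at an unadjusted p under 0.05. Gabrb1 had 0.08 (SE 0.0398, adjusted p = 0.486) and Gabrd 0.09 (adjusted p = 0.519) in edgeR's test.

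The interaction of nicotine and ethanol, which asks whether the nicotine difference is the same with and without ethanol, likewise called 0 of the 7 genes and 0.0% of all genes. Its value was positive in 6 of the 7 genes, where 49.8% of all genes had negative values. Gabrb2 had 0.20 (SE 0.0871, adjusted p = 0.714) and Gabrb1 0.19 (SE 0.0796, adjusted p = 0.710) in edgeR's test, both with an unadjusted p under 0.05, as 6.76% of all genes had. Gabrd had the 1 negative value, -0.16 (adjusted p = 0.795). With the GC correction the interaction of Gabrb1 was 0.11 and that of Gabrb2 0.16. Without NW replicate 1 that of Gabrb2 was 0.12, and without WW replicate 4 that of Gabrd was -0.10.

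Among the 12 other subunits, 9 had enough reads for the pairwise tests and 0 were called in any of the 7 comparisons by edgeR's test. Gabrg1, a gamma subunit and the neighbour of Gabra2 on chromosome 5, had a log2 fold change of -0.18 in NE against WW (SE 0.0462, adjusted p = 0.0942 in edgeR's test). Its value against WW was also negative in Water-Ethanol (-0.13, adjusted p = 0.117) and in NW (-0.22, adjusted p = 0.321) in the same test. Its transcript had 35.3% GC, and 0.3% of expressed genes (mean FPKM of at least 1) had a lower GC content. The part of GC content in the values of Gabrg1 was not tested. Of the 20 genes listed for anchoring, trafficking and the chloride gradient, among them gephyrin (Gphn) and the chloride transporters Slc12a2 and Slc12a5, all 20 were tested and 1 was called in 1 comparison, the effect of ethanol over all 16 mice, where 4.5% of all genes were called. Trak1, a motor adaptor that carries receptors and mitochondria, rose with ethanol averaged over nicotine by 0.09 on the log2 scale (SE 0.0259, adjusted p = 0.0438 in edgeR's test).

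Over the 16 mice Gabra3, Gabra4 and Gabra5 varied together. Pearson's r of log2 CPM was 0.905 between Gabra3 and Gabra4 (Spearman's rho 0.876), 0.851 between Gabra3 and Gabra5 (rho 0.756) and 0.843 between Gabra4 and Gabra5 (rho 0.712). After group means were removed these were 0.902, 0.820 and 0.823, and without the 2 mice low in cerebellar markers 0.902, 0.826 and 0.761. Over those 14 mice Gabrb2 also varied with them, with r = 0.830 to Gabra3, 0.852 to Gabra4 and 0.576 to Gabra5. Over all 16 mice the values for Gabrb2 were 0.552, 0.451 and 0.321. Gabra3, Gabra4 and Gabra5 lie on chromosomes X, 5 and 7. Gabra4 and Gabrb1, neighbours on chromosome 5, had r = 0.498, and Gabra2 and Gabrb1 in the same cluster had -0.01. Gabrd ran against the alpha subunits, with r of -0.649 to Gabra2, -0.608 to Gabra3, -0.665 to Gabra4 and -0.488 to Gabra5. Without the 2 mice low in cerebellar markers these were -0.491, -0.456, -0.324 and -0.074, so much of the inverse relation to Gabra4 and Gabra5 rested on those mice. All mice share library preparation and dissection, so these values are given as a description.

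**Figure D4:**
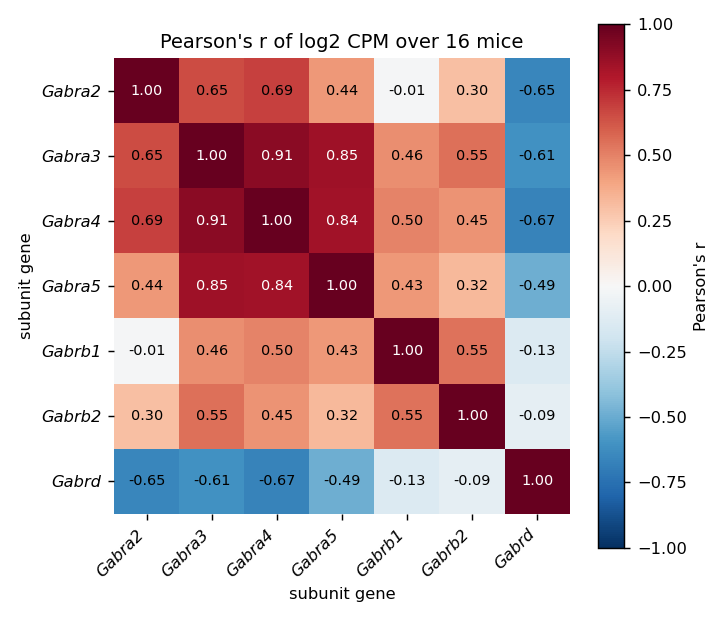
Pearson's r of log2 CPM over the 16 mice for each pair of the 7 genes, from -1 (blue) to 1 (red). Gabra3, Gabra4 and Gabra5 form a block with r of 0.843 or more, and Gabrd is negative with all 6 other genes. Its values are weak with Gabrb1 (-0.133) and Gabrb2 (-0.089), and Spearman's rho with Gabrb2 is positive (0.124).

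With the cerebellar granule cell score, the alpha subunits had r from -0.628 (Gabra4) to -0.469 (Gabra3) over all 16 mice, and Gabrb2 had 0.305. Without the 2 mice low in cerebellar markers, the alpha subunits had r from -0.083 (Gabra5) to 0.366 (Gabra2). The r of Gabrd with this score was 0.785 over all 16 mice and 0.237 over the other 14, so it rested on WW replicate 4 (53.1 CPM) and NW replicate 3 (60.4 CPM). In the same 2 mice Gabra4 was high, at 165.7 and 152.4 CPM, the highest values of the series. Gabra4 had r = 0.819 with the excitatory neuron score over 16 mice and 0.716 over 14, and r = 0.201 and 0.875 with the inhibitory interneuron score. Gabrb1 had r = 0.692 with the excitatory neuron score over 16 mice and 0.935 over 14. Within each mouse the ratio of Gabrd to Gabra4, chosen after the values were seen, was 0.408 ± 0.0609 in WW, 0.503 ± 0.0908 in NW and 0.509 ± 0.0326 in Water-Ethanol (CPM ratio, SD, n = 4 each). It reached at most 0.455 in WW and lay between 0.465 and 0.525 in NE and between 0.479 and 0.542 in Water-Ethanol, while in NW replicate 3 it was 0.396. Gabrd had a higher mean and Gabra4 a lower mean than WW in each treated group, so the choice of pair favoured a separation. The share of other gene pairs that separate was not computed. Their transcripts have 54.7% (Gabrd) and 42.2% (Gabra4) GC, and the part of GC content in the ratio was not tested.

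**Figure D5:**
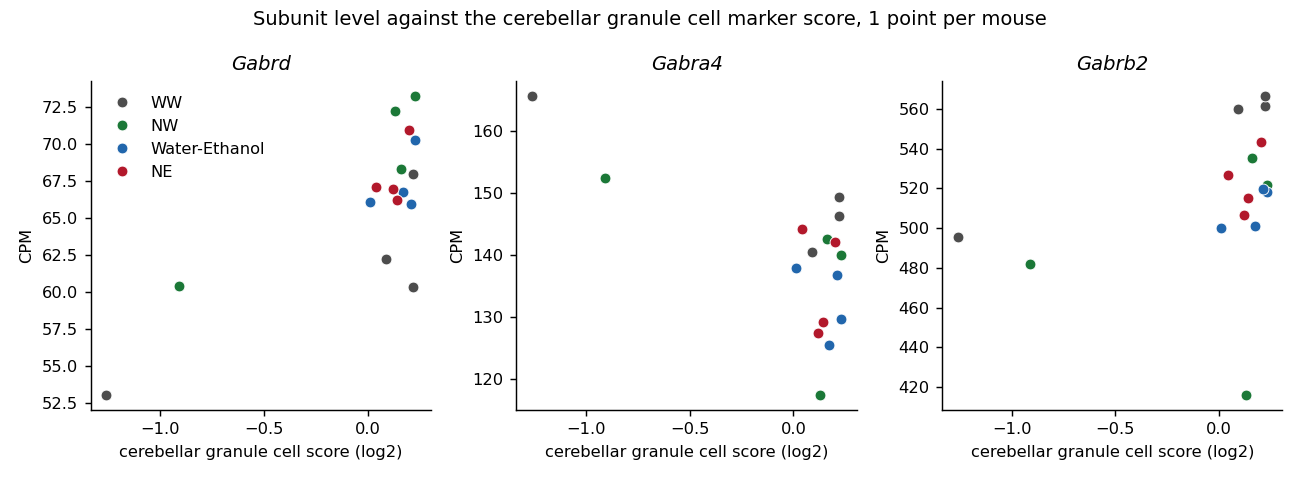
CPM of Gabrd, Gabra4 and Gabrb2 (vertical axes, not from 0) against the cerebellar granule cell score, the mean of centred log2 CPM of 8 markers, 1 point per mouse. The 2 mice with scores of -1.26 (WW) and -0.91 (NW) have low Gabrd and high Gabra4, and the other 14 mice lie between 0.01 and 0.23.

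Genes outside the 7 whose pattern over the 16 mice was most like each of them were taken by Pearson's r of log2 CPM among 15585 genes. They were Tmem29 (0.808) and the AMPA receptor subunit Gria3 (0.804) for Gabra2, Mal2 (0.924) and Slc39a10 (0.919) for Gabra3, Fam81a (0.944) and Syt16 (0.938) for Gabra4, and Arpc2 (0.923) and Morf4l2 (0.905) for Gabra5. For the beta subunits they were Cdh6 (0.903) and Xkr4 (0.890) for Gabrb1 and Tmem56 (0.969) and Zfp148 (0.968) for Gabrb2. Fam63a (0.904) and Ehd1 (0.885) were most like Gabrd, and these were 0.752 and 0.759 without the 2 mice low in cerebellar markers. Gabra6 had r = 0.744 with Gabrd over 16 mice and -0.229 over 14.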

How the data were processed

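RNA-seq of whole brains with cerebellum was analysed in 16 mice, grouped by the labels. The authors trimmed reads of 150 nt (Trimmomatic 0.32), mapped them with TopHat2 to GRCm38 (versions per the submitters' processing notes), and deposited counts per gene, not normalized, and FPKM per gene from Cufflinks, each with 1 column per mouse. The counting program and its use of strand are not given in the sources used here, and the labels name an unstranded kit where the paper names a stranded one. Replicates were numbered in accession order, and such numbers pair no mice. Nothing in the labels says more on separate litters or batches. The mouse numbers in the labels run in blocks by group: 2 to 5 in NE, 7 to 11 in NW, 13 to 16 in Water-Ethanol and 18 to 21 in WW. Whether handling followed these numbers is not given, and such an order could not be told apart from treatment. The p-values set group differences against the spread between these mice.

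Counts were tested with edgeR 4.0.16 in R 4.3.3 (TMM factors, default filter on low counts, quasi-likelihood test, Benjamini-Hochberg adjustment over all genes tested, threshold 0.05), in fits of the groups compared or of all 16 mice for the ethanol effect, nicotine effect and interaction. SE was taken from F, as the log2 fold change without its sign over the root of F. CPM are TMM-scaled, with 0.5 added before log2. Alternatives were RLE factors, DESeq2 1.42.0, no filter, limma 3.58.1 on log2(FPKM + 1) or log2(FPKM + 0.1) with genes of mean FPKM of 0.1 or more or with no filter, the cerebellar score as covariate, a GC correction (97.1% of genes matched a GENCODE transcript), all mice in the fit and leaving out each mouse. The test was run on simulated counts with the same spread for all genes and set changes larger than those of the 7 genes. That run does not give the power to detect changes of the size seen here. The 7 genes and all lists were chosen with earlier results of these data known. Named were all 7 genes, counts and called genes of the 2 lists of other subunits and of anchoring and trafficking genes, Gabra6, Gabrg1 and Gabrg3 with their values, and the 2 genes most like each of the 7. Marker lists and cerebellar, pituitary and excitatory neuron scores served as description. Further lists (Purkinje, striatal, thalamic, olfactory bulb, interneuron, astrocyte, oligodendrocyte, choroid plexus) are summarised in the closing section. Some other subunits on the list are not reported here one by one, and behavioural measurements were not analysed here.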

Additional observations from a re-analysis of the deposited data

Results flagged for a closer look

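Gabrb2 in WW replicate 4, at 495 CPM, stood apart below the other 3 WW mice (559.7 to 566.5 CPM). Of 28 gene and group pairs examined, 1 was flagged in this way, and chance flags about 1 in 20 groups. The same mouse had the lowest cerebellar granule cell marker level of the series (302.5 CPM summed over 8 markers), whose part in the low Gabrb2 value was not tested. None of the 7 interactions of nicotine and ethanol passed an adjusted p of 0.05 in edgeR's test, where the smallest was 0.710.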

How the results depend on the processing

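The count of called genes among the 7 was 0 in all comparisons and moved to 1 in Water-Ethanol against WW under DESeq2 (Gabra4, adjusted p = 0.0356), under the cerebellar score as covariate (Gabrb2, adjusted p = 0.0316) and without WW replicate 4 (Gabrb2, adjusted p = 0.0336), so leaving out each mouse gave 0 to 1. In that order, these fits called 605, 714 and 797 of all genes, against 70 in the main fit. Other alternatives called none of the 7 in any comparison. Of 448 log2 fold changes under settings other than leaving out a mouse, 434 kept direction and side of the threshold, 2 passed it and 12 changed sign. With the GC correction the sign changed for Gabra2 and Gabrb1 in NW against WW (0.0263 and 0.0888), Gabrd in NE against Water-Ethanol (-0.0071), Gabrb2 for ethanol (0.0083), Gabra2 and Gabra4 for nicotine (0.0095 and 0.0028) and Gabra2 and Gabra3 in the interaction (-0.0269 and -0.0092). For ethanol, Gabrb2 changed sign on log2(FPKM + 1) with and without the filter (0.0109 and 0.0109) and on log2(FPKM + 0.1) (0.0111), and Gabra2 without the 2 mice low in cerebellar markers (0.0056), a fit added after seeing the data. Leaving out each mouse changed 19 of 560 signs, all where the main value was under 0.05 in size: Gabrb1 in NW against WW ran from -0.0409 to 0.0446, Gabra5 and Gabrd in NE against Water-Ethanol from -0.0662 to 0.0166 and from -0.0142 to 0.0293, Gabrb2 for ethanol from -0.0346 to 0.0223, and Gabra3 and Gabra5 in the interaction from -0.0116 to 0.0709 and from -0.0117 to 0.0750. The cause was not tested.

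No paired analysis was possible because replicate numbers were given in accession order and pair no mice. With 4 mice per group, differences of the size seen, at most 13.1% between group means, lay beside 95% intervals that reached 26.8% in the pairwise comparisons, and a p that missed the threshold does not show equal levels. The whole brain sums regions, and regional differences that cancel were not measured. Most of the 7 genes are poor in GC. The log2 level of GC-poor relative to GC-rich genes was on average highest in WW (0.103), although WW replicate 4 (0.043) lay below Water-Ethanol replicate 2 (0.057). Under the GC correction the differences from WW were smaller in size, except for Gabrb1 in NW and in NE. The part of GC content in these differences was not tested and cannot be told apart from treatment here.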

Other observations

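Of the marker lists, the summed level of 5 olfactory bulb markers varied most between mice after the cerebellar and pituitary lists, from 51.1 to 103.5 CPM in Water-Ethanol against 95.1 to 99.1 in WW. The score of these 5 markers, a mean of centred log2 CPM, had r = 0.550 with Gabra5 over the 16 mice, the highest among the 7 genes. Among 4 Purkinje cell markers the summed level was 1100 CPM in WW at the lowest, in the mouse short of granule cell markers, and at least 1843 in Water-Ethanol and NE. Single markers were called in 2 lists. The choroid plexus gene Kcnj13 was called higher in Water-Ethanol (0.63 on the log2 scale) and in NE (0.54) against WW, and for ethanol. Ttr and Folr1 of the same list were not called, at 0.17 and -0.06 in Water-Ethanol and at 0.10 and 0.11 in NE. The astrocyte gene Aldh1l1 was called lower for ethanol. Of all genes, 0.457% were called in Water-Ethanol, 0.313% in NE and 4.5% for ethanol. No marker of the striatal, thalamic, cortical, interneuron or oligodendrocyte lists was called in any comparison.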
